A study of Mus musculus with 20 samples.

Results

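Integrins and the cytoplasmic proteins of focal adhesions were followed as 39 genes in a murine B16 line that carries Bcr-Abl. The genes were chosen by name and found through the accessions of their probes, a rule that reads no measured value. Earlier results of these data were known when they were chosen, so the choice was not independent of the data. They are 39 of the 32016 genes and unnamed accessions with a probe, and hold 13 integrin alpha subunits, 6 beta subunits, 5 genes of the ILK, PINCH and parvin complex, 4 genes of the talin, kindlin and vinculin group, 6 kinases and scaffolds, and 5 actin crosslinkers and tensins. The transfected plasmids encoded p65/RelA, the transactivating subunit of NF-kB, in its wild-type form (WT, 3 arrays), the non-cleavable D361E form (3 arrays), residues 1 to 361 (N-fragment, 3 arrays), residues 362 to 549 (C-fragment, 3 arrays), or both fragments together (N+C, 5 arrays). The 3 remaining arrays, labelled Blanck, were read as the void plasmid. All 6 groups share the B16 background and Bcr-Abl, a fusion tyrosine kinase. B16 is a mouse melanoma line, and the labels give the strain as mouse C3H eOuJ, which is not the strain B16 is known to come from. The labels do not say whether transfection was transient or stable, how many clones were used, or whether arrays of a group came from separate cultures, so every p-value covers the spread between these arrays, which may be technical.

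Integrins are transmembrane receptors of paired alpha and beta subunits that bind extracellular matrix outside the cell. Talin and kindlin bind the beta tail and switch the receptor on, vinculin and alpha-actinin tie it to actin, and FAK, Src, paxillin and p130Cas pass the signal on. In melanoma cells these receptors are known for their part in attachment, migration and spread.

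Levels are given as the log2 of the deposited processed signal minus the array's 75th percentile, so 0 marks that percentile. A difference of 1 is a doubling, and levels of different probes are not compared. All 39 genes had a probe. The test required a signal well above background on 3 or more of the 20 arrays, which 34 of them met. A change was called at a limma adjusted p under 0.05 over 18738 genes. The 5 genes that did not reach the test were Itga2, Itga11 and Itgb8, well above background on 0 arrays, Itga3, above it on N-fragment array 1, and Itgb7, above it on void array 2. Of the 34 tested genes 33 were above background on every array, and Tgfb1i1 on 18. Each of 12 melanocyte markers cleared background on all 20 arrays, while 6 of 9 haematopoietic markers, Ptprc among them, did so on none, although Coro1a did on 20 and Cd48 on 17. Of 8 macrophage markers Cd68 and Csf1r cleared it on 20 arrays and 4 on none, and of 6 endothelial markers Kdr and Pecam1 on 20 and 3 on none. Rela itself, the gene the constructs derive from, differed from void by 0.07 with WT, 0.08 with D361E and 0.08 with the C-fragment, none of them called, by 0.36 ± 0.07 with the N-fragment (SE, adjusted p = 0.00089), and by 0.18 with N+C (adjusted p = 0.0512). The place of its probe within the transcript was not examined, so this is no check of the fragment labels.

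The 5 N+C arrays fell into 2 sets: arrays 1, 2 and 3 correlated with each other, and 4 with 5, at r of 0.989 to 0.992 over all genes, and across the sets at 0.974 to 0.982. The labels name no difference between them. Results for N+C are therefore given with all 5 arrays and, where the sets differ, without each. The fit pools the spread of all groups. Genes that differ between the N+C sets thus have wider standard errors in every comparison, also in those without N+C. A gene that was not called may still have arrays that do not overlap void.

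With the N-fragment, 17 of the 34 tested adhesion genes were higher than in void, 4 were lower and 13 were not called (61.8% called), against 31.1% of all genes (13.2% higher and 17.9% lower). N+C gave 17 higher and 1 lower (52.9%), against 24.6% of all genes (11.8% higher and 12.8% lower). The C-fragment gave 3 higher and 6 lower (26.5%), against 13.1% of all genes (4.88% higher and 8.25% lower). D361E gave 3 higher and 2 lower (14.7%), against 13.5% of all genes (6.04% higher and 7.44% lower). With WT p65, 2 were higher and 2 lower (11.8%), against 9.39% of all genes (3.22% higher and 6.16% lower). The median difference of the 34 genes was 0.23 with the N-fragment and 0.28 with N+C, where the median over all genes was -0.06 and -0.03. For WT, D361E and the C-fragment it was -0.06, 0.03 and -0.08, beside -0.03, -0.04 and -0.02 for all genes. All 5 comparisons share the 3 void arrays. Without scaling between arrays, the median of all genes was 0.37 for WT, 0.12 for D361E and 0.21 for the C-fragment. The splits then became 17 higher and 1 lower for WT, 7 and 1 for D361E, and 6 and 2 for the C-fragment. They were 20 and 2 for the N-fragment and 22 and 1 for N+C. Of all 18738 genes, 7425 were then higher and 253 lower for WT, and 1852 and 554 for D361E. Those counts were 2865 and 513 for the C-fragment, 6323 and 1121 for the N-fragment, and 4675 and 890 for N+C. In bulk RNA, fewer cells that express a gene and less of its RNA per cell cannot be told apart.

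**Figure D1:**
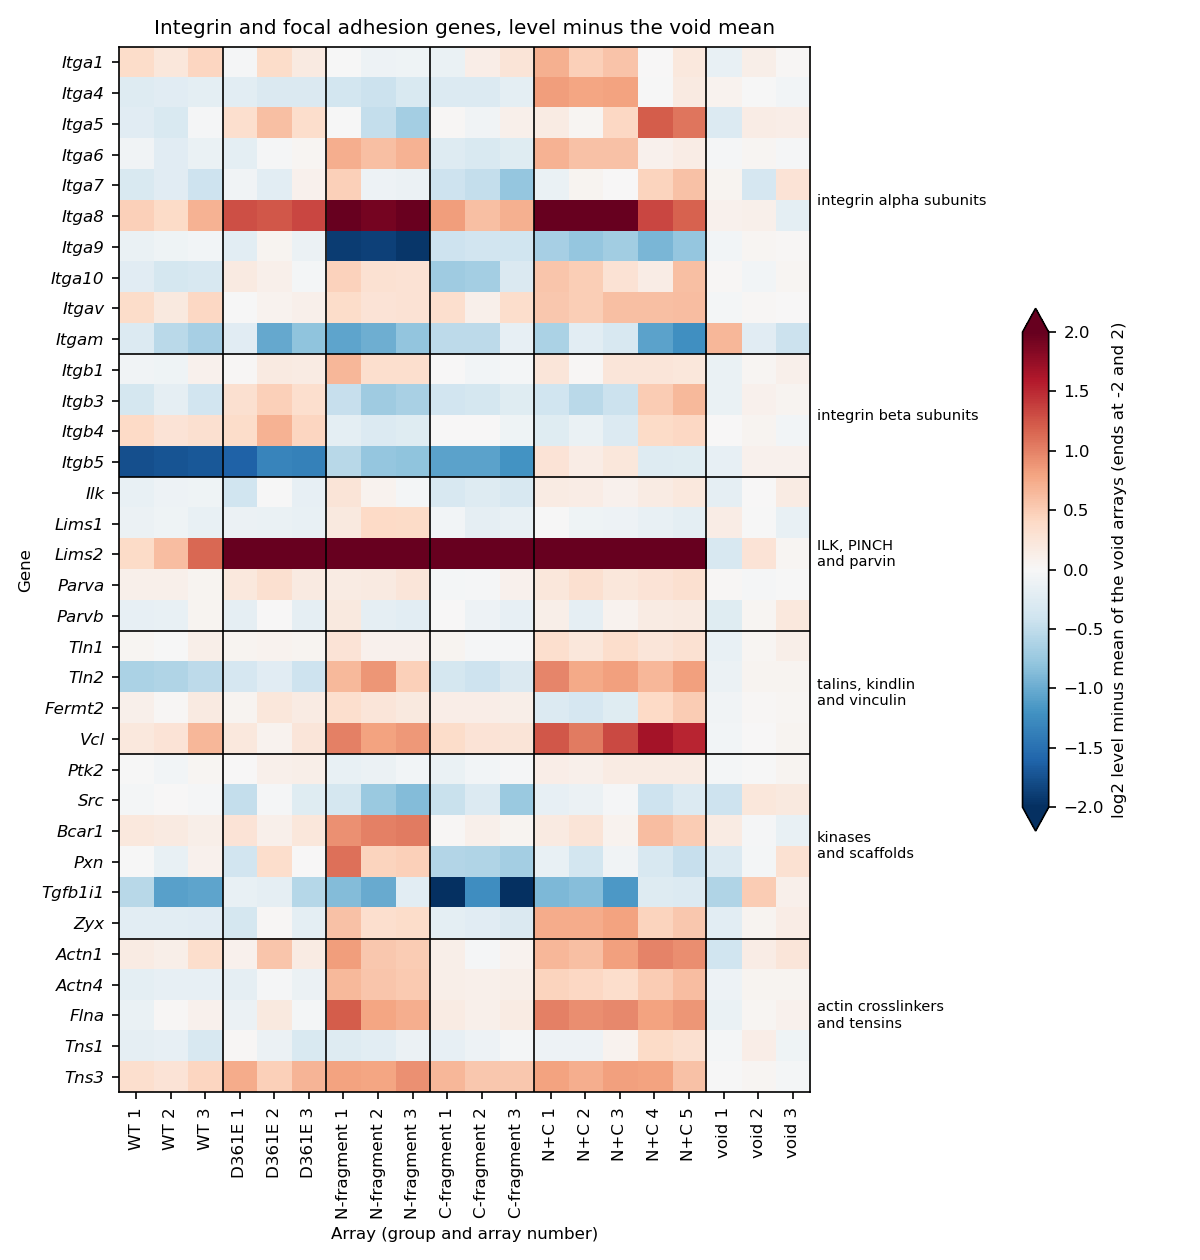
Level of each of the 34 tested genes (rows, by role) on each of the 20 arrays (columns), as the log2 difference from the mean of the void arrays; red is higher and blue lower, and the colour scale ends at -2 and 2. The red block of adhesion plaque genes stands in the N-fragment and N+C columns, Lims2 is deep red with D361E, the N-fragment, the C-fragment and N+C and paler red with WT, and Itgb5 is blue with WT, D361E, the C-fragment and, paler, the N-fragment.

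Of the alpha subunits, 10 of 13 were tested. The N-fragment raised 4 (Itga6, Itga8, Itga10 and Itgav) and lowered 2 (Itga9 and Itgam), and N+C raised 5 (those 4 and Itga4) and lowered 1 (Itga9). With the C-fragment 1 was higher and 2 were lower, with WT 1 was higher (Itgav), and with D361E 0 passed limma's adjusted threshold, 2 having an unadjusted p under 0.05. Itga1, Itga5 and Itga7 were called with no construct against void when all arrays were used. Between the N+C sets, Itga1 was 0.58 (adjusted p = 0.0012) without arrays 4 and 5 and 0.11 without arrays 1, 2 and 3, while Itga5 was 0.21 and 1.14 (adjusted p = 0.00045 for the second).

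Itga8 (chromosome 2, 12106632 to 12301985, GRCm38.p6), which pairs with beta 1 and binds RGD ligands such as nephronectin, stood at -4.60, -4.69 and -4.39 with WT, -3.79, -3.84 and -3.74 with D361E, -3.01, -3.16 and -3.10 with the N-fragment, -4.25, -4.48 and -4.37 with the C-fragment, and -2.02, -2.05, -2.04, -3.74 and -3.90 with N+C, against -4.99, -4.98 and -5.27 in void. Every construct array lay above every void array, with N-fragment and N+C arrays 1, 2 and 3 the highest. The difference from void was 1.99 ± 0.42 with the N-fragment (SE, 3.98-fold, adjusted p = 0.00161) and 2.33 ± 0.37 with N+C (5.03-fold, adjusted p = 0.000261). It was 1.29 ± 0.42 with D361E, which missed the threshold at an adjusted p of 0.0509. The D361E difference also missed with the slide as a block (1.37, adjusted p = 0.0501), but was called without scaling (1.45, adjusted p = 0.0318). In limma fits of only the groups compared, D361E (adjusted p = 0.00316) and the C-fragment (0.72, adjusted p = 0.017) were called. WT was not (0.52, adjusted p = 0.0645). Neither the C-fragment nor WT was called in the main fit. The N+C difference was 3.04 without arrays 4 and 5 and 1.26 without arrays 1, 2 and 3, called both times.

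Itga9 (chromosome 9, 118606709 to 118901003), whose alpha 9 beta 1 receptor binds tenascin-C, osteopontin and VCAM1, moved the other way. It was at -0.36, -0.30 and -0.27 with WT, -0.43, -0.16 and -0.33 with D361E, -2.12, -2.08 and -2.16 with the N-fragment, -0.63, -0.61 and -0.62 with the C-fragment, and -0.89, -0.99, -0.92, -1.14 and -1.0 with N+C, against -0.28, -0.18 and -0.20 in void. The N-fragment arrays were the lowest, apart from all others, followed by N+C and then the C-fragment, while WT and D361E overlapped void. Itga9 fell by 1.90 with the N-fragment (SE 0.07, 3.73-fold, adjusted p = 2.27e-11), by 0.77 with N+C (SE 0.06, adjusted p = 4.23e-07) and by 0.40 with the C-fragment (SE 0.07, adjusted p = 0.00177). The C-fragment call was lost without scaling between arrays (-0.16, adjusted p = 0.245).

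With all arrays used, differences of the other alpha subunits from void were under 1. Itga6, the laminin-binding alpha 6 chain, was higher by 0.68 ± 0.13 with the N-fragment (adjusted p = 0.000747) and by 0.42 ± 0.12 with N+C (adjusted p = 0.0133), where it was 0.62 without arrays 4 and 5 but 0.13, not called, without arrays 1, 2 and 3. Itgav, the alpha V chain of vitronectin and fibronectin receptors, was higher by 0.57 ± 0.06 with N+C (adjusted p = 8.47e-06), 0.31 ± 0.07 with the N-fragment (adjusted p = 0.0031), 0.32 ± 0.07 with WT (adjusted p = 0.00983) and 0.27 ± 0.07 with the C-fragment (adjusted p = 0.0213). For Itgav the WT call was lost without WT array 3 (0.28, adjusted p = 0.0502), and the C-fragment call without any one of void arrays 1 or 3 or C-fragment arrays 1 or 3 (0.25, 0.27, 0.23 and 0.22, adjusted p = 0.0544, 0.0608, 0.0897 and 0.106). Itga4, the alpha 4 chain of VLA-4, was called with N+C and no other construct, higher by 0.52 ± 0.16 (adjusted p = 0.0236). With WT, D361E, the N-fragment and the C-fragment every Itga4 array lay below every void array. Those differences were -0.23, -0.26, -0.37 and -0.25, none called. Its N+C levels of 3.63, 3.59, 3.60, 2.78 and 2.98 overlapped void levels of 2.86, 2.78 and 2.74, since arrays 4 and 5 lay near void. Without those arrays the difference was 0.81, and without arrays 1, 2 and 3 it was 0.08 and not called. The Itga4 call was also lost, at adjusted p values of 0.0715, 0.0749, 0.053, 0.0533 and 0.0548, without void array 2 or 3 or N+C array 1, 2 or 3.

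Itga10, a collagen-binding chain, was lower by 0.56 with the C-fragment (log2 difference -0.56 ± 0.12, adjusted p = 0.00646) and higher by 0.42 ± 0.11 with N+C (adjusted p = 0.0098) and 0.35 ± 0.12 with the N-fragment (adjusted p = 0.0389). That last call was lost on leaving out any one of the 3 void or 3 N-fragment arrays, with differences of 0.29 to 0.38 and adjusted p values of 0.0583 to 0.125. Itgam, the alpha M chain of a leukocyte receptor, was lower by 0.94 with the N-fragment (log2 difference -0.94 ± 0.30, adjusted p = 0.0235), at 0.37, 0.44 and 0.64 against 2.08, 1.20 and 0.99 in void, where void array 1 was the highest. Without void array 1 the Itgam difference was -0.62 (adjusted p = 0.127), and it was -0.89 and -0.92 (adjusted p = 0.0651 and 0.0639) without N-fragment array 1 or 2. With N+C, Itgam was not called over all arrays (-0.69, adjusted p = 0.0699) or without arrays 4 and 5 (-0.39), and was -1.15 (adjusted p = 0.00981) without arrays 1, 2 and 3. The other 2 Itgam probes were above background on 6 and 1 arrays where this one was on all 20, Itgax was above it on 0 arrays, Itgb2, the beta chain that alpha M pairs with, on 12, and Itgal, the alpha L chain that also pairs with it, on all 20 with one probe and on 1 with the other. Whether the bright probe measures Itgam was not tested.

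Among the beta subunits 4 of 6 were tested, and Itgb5 carried the largest change. Itgb5 (chromosome 16, 33829665 to 33949338), the beta chain of the vitronectin receptor alpha V beta 5, stood at 0.47, 0.51 and 0.54 with WT, 0.61, 0.91 and 0.88 with D361E, 1.67, 1.45 and 1.42 with the N-fragment, 1.16, 1.16 and 1.03 with the C-fragment, and 2.51, 2.38, 2.46, 1.97 and 1.98 with N+C, against 2.06, 2.31 and 2.32 in void. The first 4 groups lay below every void array, WT lowest, and N+C overlapped void. Itgb5 fell by 1.73 with WT (SE 0.14, 3.31-fold, adjusted p = 1.53e-06), by 1.44 with D361E (2.71-fold, adjusted p = 4.15e-06), by 1.12 with the C-fragment (2.17-fold, adjusted p = 9.17e-05) and by 0.72 with the N-fragment (1.65-fold, adjusted p = 0.000983). With N+C the difference was 0.03 ± 0.13 (adjusted p = 0.92), and it was 0.22 and -0.26, neither called, without arrays 4 and 5 and without arrays 1, 2 and 3. Against WT, Itgb5 was higher by 1.75 ± 0.13 with N+C (adjusted p = 8.72e-08) and by 1.01 ± 0.14 with the N-fragment (adjusted p = 5.32e-05).

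Itgb1, the beta chain shared by most of the measured alpha subunits, was called with the N-fragment and no other construct, higher by 0.45 ± 0.09 (adjusted p = 0.00168), on its brighter probe. Its other probe gave 0.16 (adjusted p = 0.334). Itgb3 and Itgb4 were called with no construct against void when all arrays were used. Itgb3 arrays with WT, D361E, the N-fragment and the C-fragment still did not overlap void (-0.31, 0.38, -0.61 and -0.33). Neither did Itgb4 arrays with WT, D361E and the N-fragment (0.33, 0.49 and -0.24). For both, the N+C sets gave opposite calls: Itgb3, the platelet and melanoma beta 3 chain, was at -0.46 without arrays 4 and 5 and 0.58 without arrays 1, 2 and 3, and Itgb4, the laminin-binding hemidesmosome chain, at -0.22 and 0.40.

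**Figure D2:**
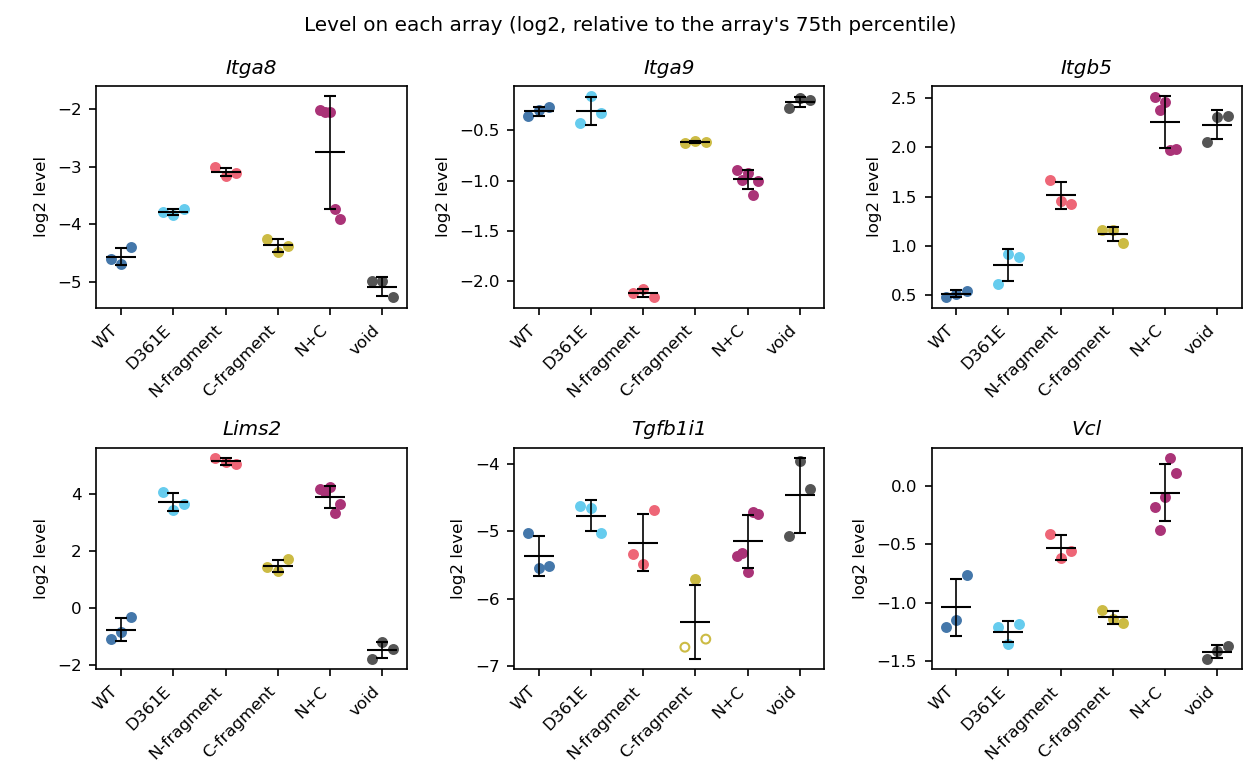
Level of the 6 genes with a called difference from void of 1 or more, on a log2 scale relative to the array's 75th percentile, with 1 point per array, the mean and SD of each group as bars, and open points where the probe was not well above background. Lims2 is 5.04 to 5.26 with the N-fragment against -1.78 to -1.20 in void, and Itga8 and Vcl are higher and Itga9 lower with the N-fragment and N+C.

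The change of greatest size among the 34 genes was in Lims2. It encodes PINCH-2, a LIM-domain adaptor that, like its relative PINCH-1 (Lims1), binds integrin-linked kinase in a complex with a parvin. Lims2 stood at -1.08, -0.85 and -0.32 with WT, 4.06, 3.43 and 3.63 with D361E, 5.26, 5.09 and 5.04 with the N-fragment, 1.44, 1.29 and 1.70 with the C-fragment, and 4.17, 4.07, 4.24, 3.33 and 3.63 with N+C, against -1.78, -1.20 and -1.42 in void. The groups did not overlap except for D361E with N+C, in an order of N-fragment, then these 2, then C-fragment, WT and void. Lims2 was higher than in void by 6.60 ± 0.25 with the N-fragment (96.8-fold, adjusted p = 2.27e-11), 5.36 ± 0.22 with N+C (40.9-fold, adjusted p = 1.96e-10), 5.17 ± 0.25 with D361E (36-fold, adjusted p = 1.5e-09) and 2.94 ± 0.25 with the C-fragment (7.68-fold, adjusted p = 2.29e-06). With WT the difference was 0.72 ± 0.25, which missed the threshold (adjusted p = 0.0856). Without scaling between arrays the WT difference was 1.12 and was called (adjusted p = 0.00465). The array held no second probe for Lims2. D361E, which differs from WT by a single residue, was 4.45 ± 0.25 above WT (21.9-fold, adjusted p = 4.47e-08). Leaving out any one array kept every one of the Lims2 calls made with scaling. Differences from void were then 6.44 to 6.73 for the N-fragment and 5.00 to 5.31 for D361E.

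Differences of the other genes of this complex were smaller. Lims1 was higher with the N-fragment by 0.33 ± 0.07 (adjusted p = 0.00296), and its second probe gave 0.50 (adjusted p = 0.00519). Parva, the alpha parvin that links ILK to actin, was called higher with D361E, the N-fragment and N+C by 0.23, 0.20 and 0.27, on the brightest of 3 probes. Neither of its other 2 probes was called with any construct, and with the mean of the probes the Parva difference was -0.01 for both D361E and the N-fragment. Ilk itself and Parvb were called with no construct against void.

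Of talin 1, talin 2, kindlin-2 and vinculin, the N-fragment raised 2 and N+C raised 3, and WT, D361E and the C-fragment each lowered 1, talin 2. Vcl (chromosome 14, 20929383 to 21033676) encodes vinculin, which couples talin to actin under load. It stood at -1.21, -1.15 and -0.76 with WT, -1.21, -1.35 and -1.18 with D361E, -0.41, -0.62 and -0.56 with the N-fragment, -1.06, -1.14 and -1.17 with the C-fragment, and -0.18, -0.38, -0.10, 0.24 and 0.11 with N+C, against -1.48, -1.41 and -1.37 in void. Every construct array was above every void array, and N+C and the N-fragment stood above the other constructs. Vcl was higher by 1.36 ± 0.12 with N+C (2.57-fold, adjusted p = 1.1e-06) and by 0.89 ± 0.14 with the N-fragment (1.86-fold, adjusted p = 0.000126), and its dimmer probe gave 0.89 (adjusted p = 0.00123) and 0.67 (adjusted p = 0.0129). The difference was 0.38 with WT, 0.17 with D361E and 0.30 with the C-fragment, none called. The N+C difference was 1.20 without arrays 4 and 5 and 1.60 without arrays 1, 2 and 3.

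Tln2, the second talin, went in both directions. It was higher by 0.81 ± 0.09 with N+C (adjusted p = 6.74e-06) and 0.67 ± 0.10 with the N-fragment (adjusted p = 6.9e-05), and fell by 0.58 with WT (SE 0.10, adjusted p = 0.00135), 0.35 with the C-fragment (adjusted p = 0.0261) and 0.33 with D361E (adjusted p = 0.0357). Levels were -1.43, -1.19 and -1.60 with the N-fragment, -1.10 to -1.42 with N+C, and -2.71, -2.68 and -2.60 with WT, against -2.20, -2.02 and -2.02 in void. Without scaling between arrays the Tln2 calls for WT (-0.19), D361E (-0.17) and the C-fragment (-0.12) were lost. Leaving out void array 2 or 3 or D361E array 1 or 3 ended the D361E call (-0.30, -0.29, -0.32 and -0.28), and void array 2 or 3 or C-fragment array 1 or 2 the C-fragment call (-0.32, -0.32, -0.35 and -0.32). Tln1 was higher with N+C by 0.29 ± 0.06 (adjusted p = 0.00285), a call lost with the mean of its probes (0.24, adjusted p = 0.0574). Fermt2, kindlin-2, was called with no construct over all arrays, and was -0.28 (called) for N+C without arrays 4 and 5 and 0.46 (called) without arrays 1, 2 and 3.

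Of the 6 kinases and scaffolds, 3 rose and 1 fell with the N-fragment, 3 rose with N+C, 2 fell with the C-fragment, and 0 passed limma's adjusted threshold with WT or D361E (1 and 0 at an unadjusted p under 0.05). Bcar1, the scaffold p130Cas, was at 3.04, 3.13 and 3.16 with the N-fragment against 2.29, 2.10 and 1.97 in void, higher by 0.99 ± 0.12 (1.98-fold, adjusted p = 8.99e-06). With N+C, Bcar1 was higher by 0.32 ± 0.10 (adjusted p = 0.0342), was not called without arrays 4 and 5 (0.16), and lost the call without void array 2 or 3 or N+C array 4 or 5 (0.31, 0.25, 0.25 and 0.28). Zyx, zyxin, a LIM protein of adhesions and stress fibres, was higher by 0.65 ± 0.10 with N+C (adjusted p = 0.000241) and 0.43 ± 0.11 with the N-fragment (adjusted p = 0.00938). Its N-fragment call was lost without void array 1 (0.32, adjusted p = 0.0527). Ptk2, focal adhesion kinase, was higher with N+C by 0.14 ± 0.04 (adjusted p = 0.0283), a call lost without void array 1 or 2 or N+C array 3 (0.12, 0.14 and 0.14, adjusted p = 0.109, 0.0924 and 0.0517).

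Pxn, paxillin, was higher with the N-fragment by 0.67 ± 0.20 (adjusted p = 0.0147) and lower with the C-fragment (-0.63 ± 0.20, adjusted p = 0.0454), at -2.38, -3.04 and -3.00 with the N-fragment and -4.07, -4.09 and -4.16 with the C-fragment against -3.75, -3.52 and -3.18 in void. The N-fragment call was lost without void array 1 (0.54) or N-fragment array 1 (0.46), and the C-fragment call without any one of void arrays 2 and 3 or the 3 C-fragment arrays (-0.65, -0.47, -0.64, -0.63 and -0.60). Src, the kinase, was lower with the N-fragment (-0.66 ± 0.18, adjusted p = 0.0101), although N-fragment levels of -3.99, -4.39 and -4.50 overlapped void levels of -4.05, -3.42 and -3.45. Without void array 2 or N-fragment array 3 the Src call was lost (-0.54 and -0.55, adjusted p = 0.0543 and 0.0527). Tgfb1i1 (chromosome 7, 128246812 to 128255699), the paxillin relative Hic-5, fell by 1.88 with the C-fragment (SE 0.33, 3.67-fold, adjusted p = 0.00158), at -6.72, -5.71 and -6.60 against -5.07, -3.96 and -4.37 in void. The C-fragment arrays lay below every void array, but C-fragment arrays 1 and 3 were not well above background, so the size rests on 1 measured array. The second Tgfb1i1 probe was above background on 6 arrays, and with the mean of both probes the difference was -1.28 and not called (adjusted p = 0.173), and with normexp it was -0.37 and called. The other constructs were not called over all arrays, at -0.90 with WT, -0.30 with D361E, -0.70 with the N-fragment and -0.69 with N+C, the last being -0.96 (adjusted p = 0.0277) without arrays 4 and 5.

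Of the actin crosslinkers and tensins, 4 of 5 rose with both the N-fragment and N+C, and 1 of 5, Tns3, with each of WT, D361E and the C-fragment. Flna, filamin A, which crosslinks actin and binds beta tails in competition with talin, was at 6.24, 5.82 and 5.76 with the N-fragment and 6.05, 5.96, 5.99, 5.84 and 5.92 with N+C, against 4.91, 5.07 and 5.13 in void. The N-fragment and N+C arrays all lay above void, with differences of 0.90 ± 0.11 (1.87-fold, adjusted p = 1.5e-05) and 0.91 ± 0.10 (1.88-fold, adjusted p = 7.98e-06), while the differences with WT, D361E and the C-fragment were -0.00, 0.01 and 0.14. The alpha-actinins followed: Actn1 was higher by 0.62 ± 0.16 with the N-fragment (adjusted p = 0.00814) and 0.80 ± 0.15 with N+C (adjusted p = 0.000826), and Actn4 by 0.58 ± 0.07 (adjusted p = 7.51e-06) and 0.47 ± 0.06 (adjusted p = 3.43e-05).

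Tns3, tensin 3, which binds beta tails and actin, was higher with all 5 constructs. It stood at 1.24, 1.18 and 1.33 with WT, 1.64, 1.38 and 1.59 with D361E, 1.71, 1.70 and 1.82 with the N-fragment, 1.56, 1.44 and 1.44 with the C-fragment, and 1.71, 1.63, 1.73, 1.71 and 1.49 with N+C, against 0.90, 0.95 and 0.86 in void. No construct array overlapped void. Its differences were 0.84 ± 0.08 with the N-fragment (adjusted p = 6.79e-07), 0.75 ± 0.07 with N+C (adjusted p = 1.49e-06), 0.64 ± 0.08 with D361E (adjusted p = 4.53e-05), 0.58 ± 0.08 with the C-fragment (adjusted p = 0.000166) and 0.35 ± 0.08 with WT (adjusted p = 0.0107). The WT call was lost without WT array 3 (0.31, adjusted p = 0.052). The dimmer Tns3 probe was called with the N-fragment (0.57), N+C (0.36) and D361E (0.35), and not with the C-fragment (0.24) or WT (-0.02).

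Tns1 was called with no construct against void on its brighter probe over all arrays, and was 0.35 (adjusted p = 0.0143) for N+C without arrays 1, 2 and 3. Its dimmer probe read -6.21, -5.42 and -6.04 with WT, -5.93, -5.97 and -6.31 with D361E, -6.96, -6.93 and -6.30 with the N-fragment, -6.21, -6.43 and -5.46 with the C-fragment, and -4.11, -4.12, -4.32, -3.43 and -3.19 with N+C, against -4.27, -4.00 and -4.19 in void. N+C and void were above background on every array, WT and D361E on 1 array each and the N-fragment and C-fragment on none. The signal was at least 2.65-fold lower with the N-fragment (adjusted p = 1.12e-05) and at least 2.7-fold lower with the C-fragment (adjusted p = 0.00099) than in void, a bound set by the lowest signal well above background on those arrays. The probes of Tns1 disagree.

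**Figure D3:**
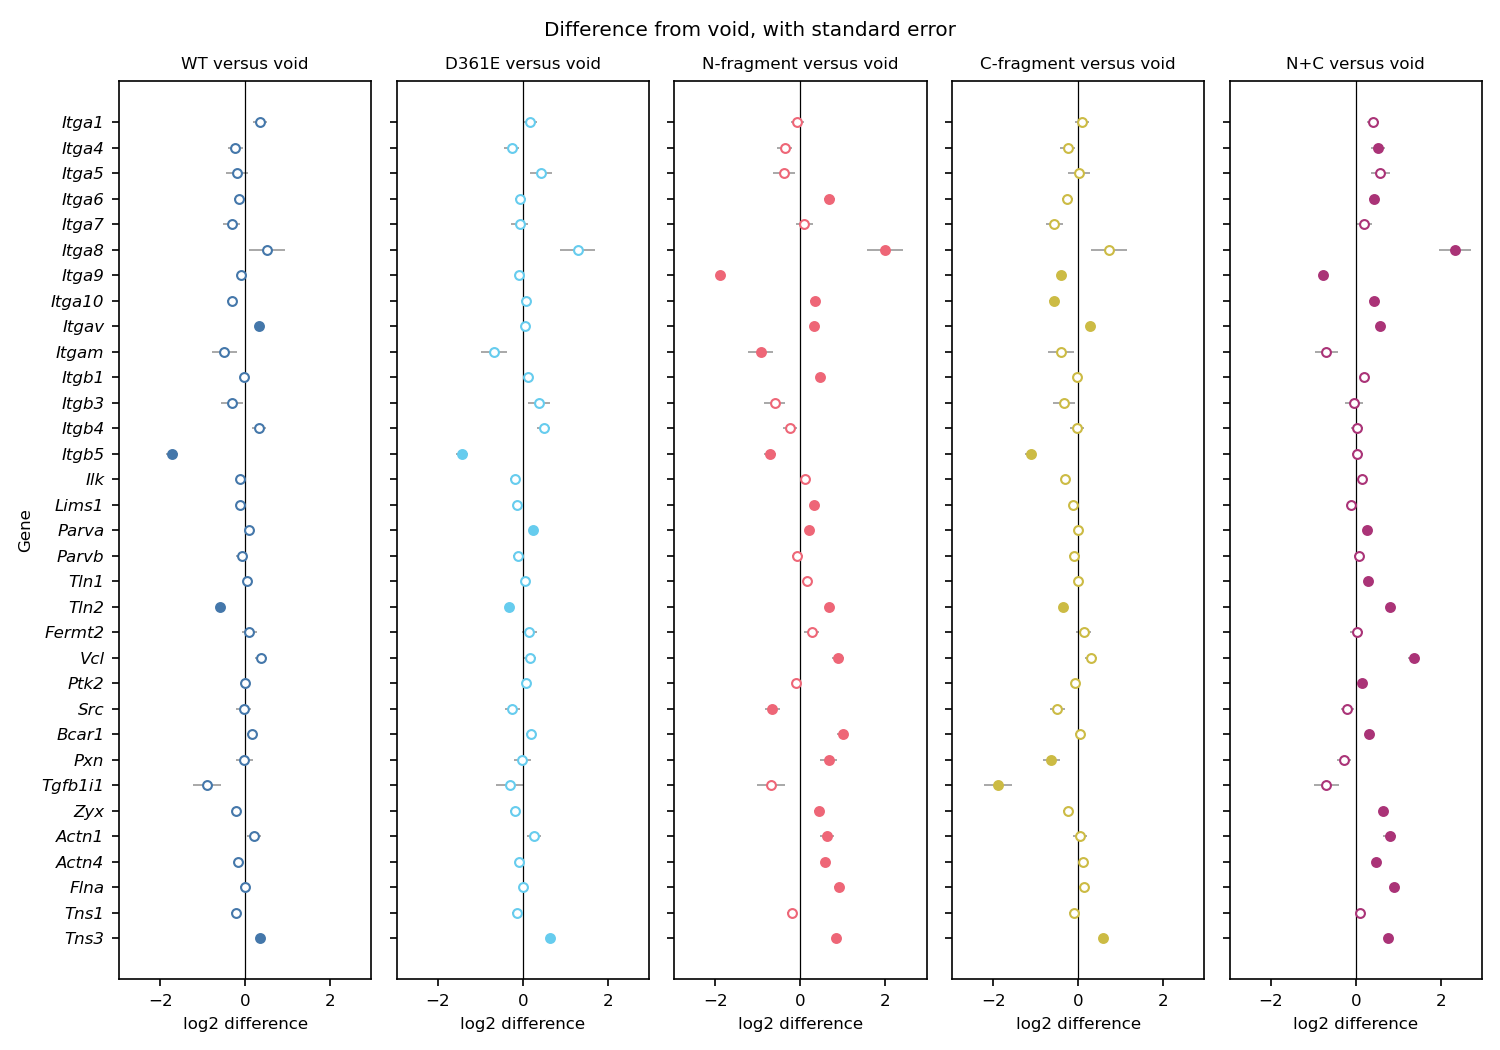
Log2 difference from void (horizontal axis) with its standard error for 33 genes, Lims2 left out for scale, in 5 panels, 1 per construct; filled points are called at an adjusted p under 0.05 and open points are not. Points of Vcl, Zyx, Flna, Actn1, Actn4 and Tns3 are filled and right of 0 for the N-fragment and N+C, and Itgb5 is filled and left of 0 in every panel but N+C.

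Promoter sequence was set beside the genes that moved together. RefSeq promoter windows of 250 bases before to 50 after a start (build GRCm38.p6) were matched to 29 of the 39 genes, 34 windows in all. An NF-kB consensus of 10 bases, searched on both strands, was found in 5 of these 34 windows (Flna, Ilk, Itga3, Src and Vcl). It was found in 8.46% of all 32851 windows. The SRF-binding CArG box was found in 2 (Fermt2 and Vcl) and in 1.63% of all windows, the AP-1 motif TGANTCA in 4 (Actn4, Itga3, Itga9 and Zyx) and in 7.81%, and the TEAD motif GGAATG in 5 (Actn4, Flna, Itga10, Itgb1 and Vcl) and in 14.7%. The first 200 bases of the Vcl and Flna windows are shown because both genes were higher with the N-fragment and N+C and both windows hold an NF-kB match. Capitals mark NF-kB and CArG matches, which in Vcl overlap at 1 end: the CArG box covers bases -227 to -218 and the NF-kB match, on the minus strand, -219 to -210 from the start at 0. In Flna the NF-kB match covers -150 to -141 and contains a TEAD match. The Vcl stretch lies at chr14:20929148-20929347 (plus strand), upstream of the annotated gene, and the Flna stretch at chrX:74246585-74246784 (minus strand), inside the span annotated for Flna and so upstream of an internal start.
Vcl: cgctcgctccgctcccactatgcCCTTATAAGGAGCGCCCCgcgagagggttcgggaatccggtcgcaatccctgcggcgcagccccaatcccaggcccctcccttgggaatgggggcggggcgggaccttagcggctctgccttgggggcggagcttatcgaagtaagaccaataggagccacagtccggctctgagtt
Flna: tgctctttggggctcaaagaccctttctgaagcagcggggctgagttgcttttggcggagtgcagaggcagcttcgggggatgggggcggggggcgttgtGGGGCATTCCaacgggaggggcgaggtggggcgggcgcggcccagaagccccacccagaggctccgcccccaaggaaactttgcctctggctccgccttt
Ilk and Src hold a match too. Against void, Ilk was called with no construct, while Src was lower with the N-fragment. A match is a description of these letters, and binding of p65 was not measured.

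Against WT p65, 15 of the 34 genes were higher and 3 lower with the N-fragment (52.9% called, against 27.3% of all genes, 13.8% higher and 13.5% lower). With N+C 20 were higher and 1 lower (61.8%, against 23.3% of all genes, 13.6% higher and 9.67% lower). D361E gave 1 higher, Lims2, and 1 lower, Itgav (5.88%, against 4.21% of all genes, 2.42% higher and 1.79% lower). The C-fragment gave 3 higher and 1 lower (11.8%, against 4.44% of all genes, 2.09% higher and 2.35% lower). Without scaling between arrays the splits were 1 higher and 2 lower for D361E and 15 and 4 for the N-fragment. They were 1 and 4 for the C-fragment and 11 and 3 for N+C. Of all 18738 genes, 130 were then higher and 1274 lower for D361E, and 1556 and 2422 for the N-fragment. For the C-fragment those counts were 74 and 866, and for N+C 858 and 3150. Flna was higher than in WT by 0.91 ± 0.11 with the N-fragment (adjusted p = 1.56e-05) and 0.92 ± 0.10 with N+C (adjusted p = 7.01e-06), and Tln2 by 1.26 ± 0.10 (adjusted p = 9.42e-08) and 1.39 ± 0.09 (adjusted p = 1.8e-08). Itga9 fell by 1.81 with the N-fragment (SE 0.07, adjusted p = 4.08e-11) and by 0.68 with N+C (SE 0.06, adjusted p = 1.54e-06) relative to WT. Lims2 was higher than in WT by 5.88 ± 0.25, 4.64 ± 0.22 and 2.22 ± 0.25 with the N-fragment, N+C and the C-fragment. These 4 comparisons share the 3 WT arrays, and those with the same construct share its arrays with the comparison to void.

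Several calls against WT were lost when 1 array was left out. The D361E call of Itgav (-0.27, adjusted p = 0.0455) was lost without any one of WT arrays 1 and 3 or the 3 D361E arrays (adjusted p of 0.0918 to 0.179). For the C-fragment, Itga9 (-0.31) and Actn4 (0.28) were called over all arrays and in none of the 6 fits that left out 1 array, with adjusted p values of 0.0513 to 0.0864 and 0.0618 to 0.0904, and Itgb5 (0.61) was lost without any one WT array or C-fragment array 1 or 2 (0.59 to 0.63, adjusted p of 0.0527 to 0.0864). For the N-fragment, Vcl (0.43) and Itgb4 (-0.53) were lost without WT array 1, Pxn without WT array 2 (0.64) or N-fragment array 1 (0.48), and Src without N-fragment array 2 (-0.58) or 3 (-0.53). For N+C, Itga5 was lost without WT array 1 or 2 or N+C array 5 (0.74, 0.71 and 0.64), Itgav without WT array 2 (0.19), Tln1 without WT array 2 (0.21) and Ptk2 without WT array 1 or 2 (0.15 and 0.13). The Ilk call was lost without any one WT array or N+C array 1, 2, 4 or 5 (0.25 to 0.28), and that of Tns1 without any one WT array or N+C array 3, 4 or 5 (0.26 to 0.36).

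The N+C arrays were also fitted as sets. Against void, 14 of the 18 calls held in the same direction with all 5 arrays, without arrays 4 and 5, and without arrays 1, 2 and 3, namely Itga8, Itga9, Itgav, Lims2, Parva, Tln1, Tln2, Vcl, Zyx, Ptk2, Actn1, Actn4, Flna and Tns3. The 4 that did not were Itga4, Itga6, Itga10 and Bcar1. Counts were 17 higher and 5 lower without arrays 4 and 5, and 19 higher and 2 lower without arrays 1, 2 and 3. Calls over all 18738 genes rose in these fits too, from 4601 with all 5 arrays. They were 6316 (2928 higher and 3388 lower) without arrays 4 and 5. Without arrays 1, 2 and 3 they were 5297 (2621 higher and 2676 lower). Against WT, 17 of the 21 calls held in all 3 fits, and Itga5, Ilk, Tln1 and Tns1 did not. Over all genes, calls against WT were 4360 with all 5 arrays. They were 6027 without arrays 4 and 5, and 5168 without arrays 1, 2 and 3. The share of all called genes that held in the 3 fits was not counted. The fits share their void and WT arrays and use N+C arrays in common, so part of the agreement is built in.

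**Figure D4:**
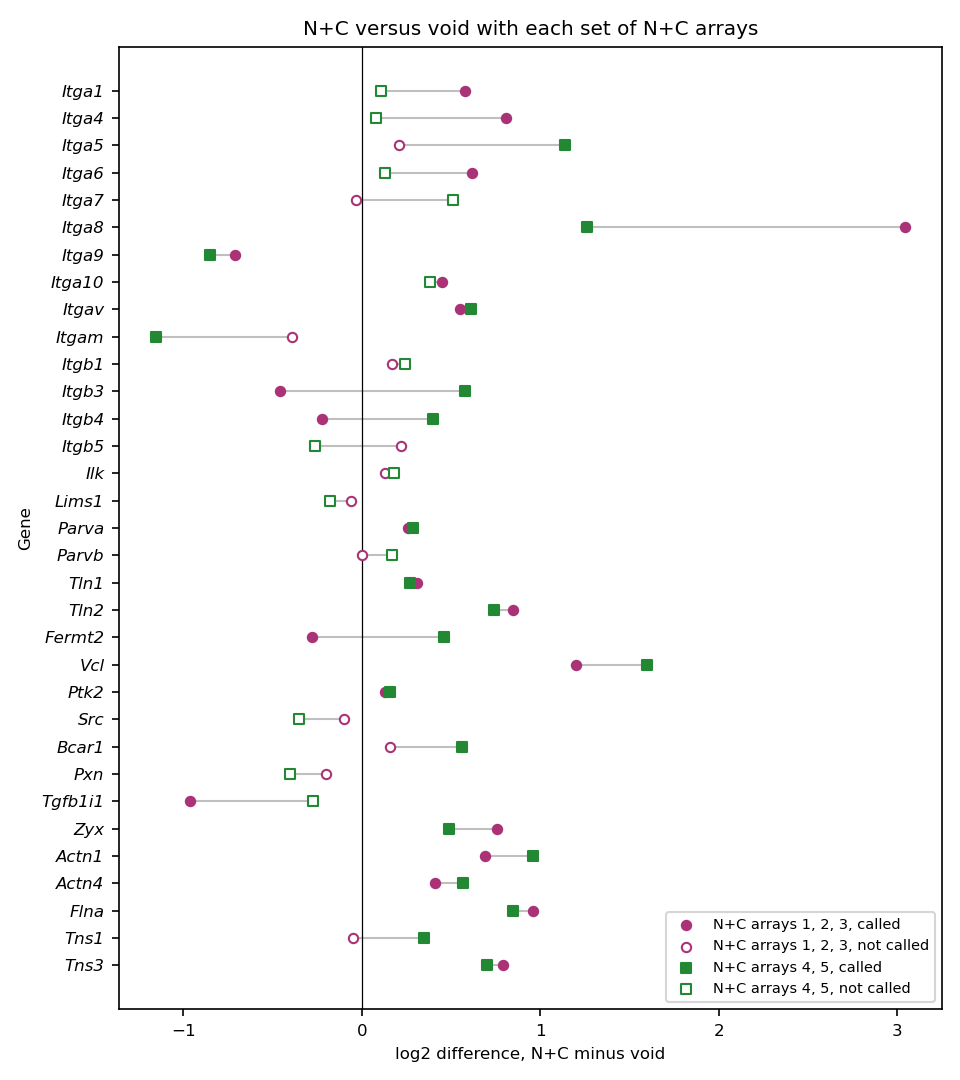
Log2 difference of N+C from void for 33 genes (Lims2 left out for scale), fitted with N+C arrays 1, 2 and 3 (circles) and with arrays 4 and 5 (squares), filled where called. Vcl, Flna, Zyx, Actn1, Actn4, Tln2 and Tns3 are right of 0 and filled with both sets, Itga8 is 3.04 with the first and 1.26 with the second, and Itgb3, Itgb4 and Fermt2 lie on opposite sides of 0.

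The arrays sat on 5 slides of 4. With the slide as a block, Lims2 differed from void by 6.53 with the N-fragment, 5.30 with N+C, 5.19 with D361E and 2.83 with the C-fragment, and Itgb5 by -1.69 with WT. Itga9 was -1.90 with the N-fragment, Itga8 1.93 with the N-fragment and 2.25 with N+C, Vcl 1.34 with N+C and Tgfb1i1 -1.79 with the C-fragment, all called. The block added calls, among them Tgfb1i1 with WT (-0.81, adjusted p = 0.049), the N-fragment (-0.80, adjusted p = 0.0193) and N+C (-0.65, adjusted p = 0.0224). Another was Tgfb1i1 with the C-fragment against WT (-0.97, adjusted p = 0.0148). Against void the block called 6 adhesion genes with WT and 6 with D361E, beside 1956 and 3631 of all genes. It called 22 with the N-fragment, 9 with the C-fragment and 23 with N+C, beside 6697, 2748 and 6266. It ended the C-fragment calls against void of Tln2 (-0.33, adjusted p = 0.0569) and Pxn (-0.45, adjusted p = 0.117). Against WT it ended the N+C calls of Itga5 (0.53), Ilk (0.16), Ptk2 (0.14) and Tns1 (0.33). Within the slides that held both groups, Lims2 differed by 6.68 with the N-fragment (slide 2), 4.84 and 4.83 with D361E (slides 2 and 5), 5.05, 5.85 and 4.95 with N+C (slides 2, 3 and 5) and 3.48 with the C-fragment (slide 3). Itgb5 was -1.55 with WT on slide 3, Itga9 -1.92 and Itga8 2.26 with the N-fragment on slide 2, Vcl 1.49, 1.11 and 1.44 with N+C on slides 2, 3 and 5, and Tgfb1i1 -1.53 with the C-fragment on slide 3.

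Markers of other cell types were examined beside the N-fragment result. The summed linear signal of 8 fibroblast markers, relative to the array's 75th percentile, was 2.94 to 3.55 on N-fragment arrays and 0.233 to 0.716 on N+C arrays, against 1.32 to 1.66 in void. Of these markers Pdgfrb, Dcn and Lum were above background on no array. Col1a2 was above it on 20 arrays, Col1a1 on 18, Pdgfra on 16, Postn on 11 and Thy1 on 3. Of the 5 fibroblast markers tested, 3 were higher with the N-fragment and 1 was lower with N+C. The summed signal of 4 Schwann cell markers was 17.8 to 19.4 with the N-fragment and 18.5 to 26.7 with N+C against 43.0 to 69.0 in void. The part of either list in the adhesion results was not tested.

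Matrix ligands and further adhesion genes, from lists that share no gene with the 39, were counted in the same fit. Of 42 integrin ligands 27 were tested, and 12 rose and 3 fell with the N-fragment, 7 rose and 4 fell with N+C, 1 rose and 5 fell with the C-fragment, 4 rose and 7 fell with D361E, and 2 rose and 4 fell with WT. These are 55.6%, 40.7%, 22.2%, 40.7% and 22.2% of the tested ligands, against 31.1%, 24.6%, 13.1%, 13.5% and 9.39% of all genes. Fn1, fibronectin, was at 3.45, 3.19 and 3.12 with the N-fragment and 3.07, 2.89, 2.76, 1.03 and 1.08 with N+C, against 0.28, 0.30 and 0.35 in void, higher by 2.95 ± 0.43 (adjusted p = 7.21e-05) and 1.86 ± 0.38 (adjusted p = 0.00211). N+C arrays 4 and 5 were the lower ones for Fn1, as for Itga8. Npnt, nephronectin, a ligand of alpha 8 beta 1, was lower with both: it was at -3.53, -3.57 and -4.28 with the N-fragment and -2.21, -2.50, -2.46, -3.87 and -3.62 with N+C, against -1.25, -0.83 and -0.89 in void. The Npnt difference was -2.80 ± 0.36 with the N-fragment (adjusted p = 1.86e-05) and -1.94 ± 0.32 with N+C (adjusted p = 0.000339). N+C arrays 4 and 5 were the lower ones for Npnt too. Ccn1, a matricellular integrin ligand, was at 1.82 to 2.22 with N+C against -0.61 to -0.25 in void, higher by 2.43 ± 0.11 (adjusted p = 2.74e-10), and was also higher with D361E (0.98 ± 0.12, adjusted p = 3.59e-05); its N-fragment levels were 1.53 to 1.68. Lamb1, the laminin beta 1 chain, was higher with the N-fragment by 5.70 ± 0.49 (adjusted p = 2.91e-07), at 2.47, 2.19 and 2.16 against -3.38, -3.32 and -3.57 in void. It was higher with WT too, by 2.49 ± 0.49 (adjusted p = 0.00483), and with D361E, by 2.29 ± 0.49 (adjusted p = 0.00512). The C-fragment arrays of Lamb1 also lay above void, at -1.88, -2.11 and -2.18, but were not called. N+C arrays read -2.96, -3.35, -3.49, -1.16 and -1.17, with arrays 4 and 5 the higher ones.

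Of 85 other integrin and adhesion adaptor genes 70 were tested, and 16 rose and 16 fell with the N-fragment and 16 rose and 10 fell with N+C, while WT had 3 and 7, D361E 4 and 8, and the C-fragment 4 and 5. The shares called were 45.7% with the N-fragment and 37.1% with N+C, against 31.1% and 24.6% of all genes. They were 14.3% with WT, 17.1% with D361E and 12.9% with the C-fragment, against 9.39%, 13.5% and 13.1% of all genes. The C-fragment share was near that of all genes. The largest fall with the N-fragment was in Cd82, a tetraspanin known as a suppressor of metastasis, at -0.87, -0.96 and -0.93 against 2.54, 2.57 and 2.67 in void (-3.51 ± 0.12, adjusted p = 1.24e-11). Cd82 was also lower with the C-fragment (-1.94), D361E (-1.51) and N+C (-0.95). Another tetraspanin, Cd9, moved the other way, higher by 2.28 ± 0.09 with the N-fragment (adjusted p = 5.54e-11) and 1.27 ± 0.08 with N+C (adjusted p = 2.92e-08), and by 0.53 with WT, 0.42 with D361E and 0.41 with the C-fragment, all called. A further list held 35 genes taken as targets of SRF and its cofactor MRTF, of which 30 were tested. Besides cytoskeletal genes it holds the transcription factor genes Egr1 and Junb, and Mrtfa itself. It shares Ccn1 and Ccn2 with the ligands and Fhl2 with the adaptor genes. In limma 13 rose and 2 fell with the N-fragment, and 13 rose and 0 fell with N+C (0 lower at an unadjusted p under 0.05). The counts were 2 and 4 with WT, 7 and 3 with D361E and 2 and 4 with the C-fragment. Of the tested genes of this list 50% were called with the N-fragment, 43.3% with N+C, 20% with WT, 33.3% with D361E and 20% with the C-fragment, against 31.1%, 24.6%, 9.39%, 13.5% and 13.1% of all genes. The median difference of this list was 0.36 with the N-fragment and 0.50 with N+C, beside -0.06 and -0.03 for all genes.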

How the data were processed

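Total RNA labelled with Cy3 was hybridised to 20 one-colour Agilent arrays with 44397 features. Agilent Feature Extraction 10.7.3.1 made the deposited intensity files, per the submitters' processing notes, and the deposited series table equals the processed, background-subtracted signal on all 20 arrays, so the values the authors deposited carry no scaling between arrays. Probes well above background made up 51.1 to 57.9% of the 43020 non-control spots of an array, which limits what can be compared, and the number of arrays limits precision. The arrays sat on 5 slides scanned on 1 day, per the file headers.

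Intensities were log2-transformed and centred by subtracting the 75th percentile of an array's non-control probes, which differed up to 1.45-fold. Outlier spots (98 to 285 per array) were left out, and 0 spots were saturated. Probes were named by accession through a RefSeq table (28663 of 39429), and 23432 above background on at least 3 arrays were kept. The brightest probe stood for a gene. limma 3.58.1 in R 4.3.3 was fitted to all 20 arrays and 6 groups (residual df 14, prior df 1.44), with Benjamini-Hochberg adjustment over 18738 genes within a comparison and a call at an adjusted p under 0.05. Titles give running numbers only, so there was no replicate block. The fit was tested on simulated data.

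The members, lists and tests were chosen with earlier results of these data known. Per-array values and full statistics were given for members called against void with a log2 difference of 1 or more, up to 3 further members per direction and comparison by size, and up to 3 called genes per direction and comparison of each list; other members named had their calls described by role, and were chosen for naming after their values were seen. Alternatives were no scaling, quantile normalization alone or after normexp (offset 50), no filter or a filter on every array, averaged probes, a fit of just the groups compared, the slide as a block, and leaving out each array. One marker gene of the lists is not reported here. The files used hold no mean signal, so normexp took the median signal. Fits without either N+C set, and of each probe alone, were added after seeing the data. Figures were drawn with matplotlib 3.10.9.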

Additional observations from a re-analysis of the deposited data

Results flagged for a closer look

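In 34 groups of 5 arrays, 1 per tested gene, the distance of the outermost N+C array from its nearest neighbour was compared with Dixon's critical value of 0.71 for 5 arrays, which chance passes in about 1 of 20 groups. N+C array 2 was apart for Itgb1 (gap over range 0.861), at 2.08 where the other N+C arrays were at 2.27 to 2.30. It was also apart for Parvb (0.74), at 0.41 where the others were at 0.67 to 0.77. Neither gene was called with N+C. The 2 flags among 34 groups are close to the rate of 1 in 20. That rate holds for arrays of a single population, and the N+C arrays fell into 2 sets, so it may not apply here.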

How the results depend on the processing

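No paired analysis was possible because sample titles hold a running number and no shared replicate number; slides shared by groups were taken as a block. Of the 102 calls of a gene in a comparison, 93 held with quantile normalization, 87 with normexp, 83 without scaling, 88 without the filter, 101 of 101 with the filter on all arrays, 88 with the mean of a gene's probes, 72 with only the groups compared, 96 with the slide as a block, and 74 in every fit that left out 1 array. Those reversed were Parva with the mean of probes (-0.01 for D361E and -0.01 for the N-fragment against void) and Ptk2 for N+C against WT without scaling (-0.04). Counts of called genes that moved by over 1.5 times were, without scaling, 18 for WT against void and 8 for D361E against void. Of all 18738 genes, 7678 and 2406 were called in those comparisons. D361E against WT gave 1 with quantile normalization and 1 without the filter, beside 808 and 522 over all genes. The C-fragment against WT gave 2 with normexp, 2 without the filter, 7 with only the groups compared and 7 with the slide as a block. N+C against WT gave 13 with only the groups compared. Over all genes these fits called 527, 469, 2299 and 1699 for the C-fragment and 2645 for N+C. Unscaled medians of all genes were 0.28 for the N-fragment and 0.19 for N+C against void, and -0.24, -0.10, -0.15 and -0.19 for D361E, the N-fragment, the C-fragment and N+C against WT. Leaving out 1 array gave 2 to 5 for WT, 4 to 5 for D361E, 18 to 20 for the N-fragment, 6 to 10 for the C-fragment and 15 to 20 for N+C against void, and 1 to 2, 16 to 18, 1 to 2 and 15 to 21 for D361E, the N-fragment, the C-fragment and N+C against WT. Except for the construction of the smaller fits, the cause was not tested. With 3 arrays in most groups, sizes near background are uncertain, as for Tgfb1i1, and 5 genes could not be compared.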
